A study of Mus musculus with 12 samples.

Results

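The genes described here are the mouse zinc finger genes named Zfp and a number that were expressed in Myc-CaP cells, a prostate cancer line made from a Myc-driven mouse tumor. They were selected on their level: a gene belonged if its mean in the 3 DMSO cell libraries was at least 1 TPM (a library's transcript abundance, scaled to transcript length and to the library's sum). Of 401 genes with such a name, 266 were members, out of 40077 genes listed in the cell table, and all 266 were also listed among the 34508 genes of the tumor table. Just inside the threshold stood Zfp990 at 1.00 TPM, Zfp606 at 1.11 TPM and Zfp935 at 1.11 TPM, and just outside it Zfp467 at 0.947 TPM, Zfp810 at 0.925 TPM and Zfp473 at 0.901 TPM.

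RNA-seq libraries came from 4 groups of 3. Cultured Myc-CaP cells received DMSO or 1 μM YJ1206 for 24 hours, and YJ1206 is a PROTAC, a molecule that marks its target proteins CDK12 and CDK13 for degradation. Subcutaneous tumors grown from Myc-CaP cells in male FVB mice came from animals dosed orally, 3 times weekly, with vehicle or with 100 mg/kg of YJ1206. The 4 groups share 1 cell line and the labels name no further genetic change, while tumors also hold host cells and the animals' ages are not given in the sources used here. Each contrast was tested apart, and the difference of the 2 effects was tested across all 12 libraries.

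C2H2 zinc finger proteins form the largest class of mammalian transcription factors. Each finger is a short loop held by a zinc ion between a pair of cysteines and a pair of histidines, and rows of fingers read DNA. Many members also carry a KRAB box, which recruits the corepressor KAP1 (the product of Trim28) and through it the histone methyltransferase SETDB1 to silence chromatin, above all at transposable elements and imprinted loci. Other proteins with the same gene prefix bind RNA, act in ubiquitin transfer or activate promoters. CDK12 and CDK13 phosphorylate RNA polymerase II during elongation, with cyclin K (Ccnk) as their partner.

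The stretches that define the family are shown for members on which the results turn. They are coding sequences of GENCODE vM21 transcripts on the GRCm38 build, written from the 5′ to the 3′ end. In the KRAB cores the capitals mark the codons of the fixed residues of the letter pattern that was searched for. In the fingers the capitals mark the codons of the zinc-binding cysteines and histidines.
Zfp57 KRAB core, chr17:37006116-37006169, strand +, exon 4 of 5: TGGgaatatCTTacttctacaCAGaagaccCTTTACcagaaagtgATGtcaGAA
Zfp626 KRAB core, chr7:27808249-27808302, strand +, exon 2 of 4: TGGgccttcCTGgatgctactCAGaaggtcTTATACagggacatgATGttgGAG
Zfp949 KRAB core, chr9:88567207-88567260, strand +, exon 4 of 6: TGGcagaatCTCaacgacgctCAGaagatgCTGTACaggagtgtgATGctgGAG
Zfp52 KRAB core, chr17:21557183-21557236, strand +, exon 4 of 5: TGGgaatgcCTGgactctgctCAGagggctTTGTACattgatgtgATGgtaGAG
Zfp948 KRAB core, chr17:21584828-21584881, strand +, exon 5 of 6: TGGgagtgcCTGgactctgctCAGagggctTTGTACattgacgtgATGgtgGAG
Zfp57 zinc finger, chr17:37009679-37009741, strand +, exon 5 of 5: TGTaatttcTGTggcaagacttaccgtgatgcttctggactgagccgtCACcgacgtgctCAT
Zfp949 zinc finger, chr9:88569270-88569332, strand +, exon 6 of 6: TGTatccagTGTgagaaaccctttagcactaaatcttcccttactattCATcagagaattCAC
Zfp827 zinc finger, chr8:79070403-79070465, strand +, exon 3 of 15: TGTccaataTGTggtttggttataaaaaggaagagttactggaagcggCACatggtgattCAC
Zfp296 zinc finger, chr7:19579639-19579704, strand +, exon 3 of 3: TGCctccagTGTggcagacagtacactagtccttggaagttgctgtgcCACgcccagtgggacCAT
Zfp622 zinc finger, chr15:25984565-25984633, strand +, exon 1 of 6: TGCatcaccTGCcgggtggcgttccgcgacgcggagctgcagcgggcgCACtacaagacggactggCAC
The KRAB cores of Zfp52 and Zfp948, neighbors 4.41 kb apart on chromosome 17, are identical at 51 of 54 bases. Zfp827, Zfp296 and Zfp622 carry fingers and no match to the KRAB pattern.

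Of the 266 members, 265 had an annotated protein, with a median of 10 matches to the finger pattern and a range of 0 to 36. The 10 proteins without a match included Zfp36, whose fingers are of the CCCH type that binds RNA. The member without a protein was Zfp469, which GENCODE vM21 gives as a lincRNA. A KRAB pattern was found in 109 members, 156 proteins had none, and a protein without this exact pattern can still hold a KRAB box. Chromosome 7 held 64 members, chromosome 17 held 35 and chromosome 13 held 21. The members' genes were compact: the median span was 17.8 kb with 5 exons, against 24.0 kb and 9 exons for the other protein-coding genes at 1 TPM or more in DMSO cells.

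Total estimated counts ran from 18198086 to 18519926 in DMSO cells and from 13936902 to 14869592 in YJ1206 cells, without overlap. In tumors they ran from 15391544 to 26928365, and the groups overlapped. The library names of the 2 cell groups also come from separate runs of numbers. In cells, library series therefore cannot be told apart from treatment. The cyclin-dependent kinase genes targeted at the protein level were still transcribed. Cdk12 mRNA rose with YJ1206 in cells (log2 fold change 0.58, adjusted p = 2.26e-14) and in tumors (0.35, adjusted p = 0.0108). Cdk13 mRNA had log2 fold changes of 0.027 and 0.063 that did not pass the test. In TPM, Cdk13 read 35.1, 35.8 and 33.1 in DMSO cells and 28.5, 30.0 and 26.7 in YJ1206 cells, without overlap. The median of all genes also fell on that scale (log2 fold change -0.26 with a pseudocount of 1). Ccnk mRNA rose in cells (0.42, adjusted p = 1.15e-10) and did not pass the test in tumors (-0.11, adjusted p = 0.246). None of these mRNA values checks protein degradation. The epithelial marker Epcam was at 0 in both cell groups, while the summed level of the epithelial and prostate marker list was 2785 to 2863 CPM (counts scaled to library size) in DMSO cells. Skeletal muscle markers moved with the tumor groups: all 8 tested were lower with YJ1206, and the 9 together summed to 148 to 2617 CPM in vehicle and 44.1 to 49.1 CPM in YJ1206 tumors. Fibroblast markers summed to 1014 to 2539 CPM in vehicle and 697 to 1571 CPM in YJ1206 tumors, leukocyte markers to 228 to 349 and 244 to 318 CPM, and endothelial markers to 130 to 149 and 157 to 172 CPM. Epithelial and prostate markers summed to 1991 to 2216 CPM in vehicle and 3711 to 4030 CPM in YJ1206 tumors. The part of these cell types in the tumor results was not tested, and in a bulk tumor fewer cells of a type and less RNA per cell cannot be told apart. Library 3 of each tumor group also stood apart in its position: its level lay between those of libraries 1 and 2 for 59.7% of genes in vehicle and 50.6% in YJ1206 tumors, against 31.1% to 36.3% for any library of the cell groups.

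In cultured cells the zinc finger genes together took a smaller share of the transcriptome with YJ1206. Members held 0.70% ± 0.0042 (SD, n = 3) of counts with DMSO and 0.569% ± 0.0054 (SD, n = 3) with YJ1206. Their TPM values summed to 3683 ± 34 (SD, n = 3) and 2868 ± 64 (SD, n = 3), and the groups did not overlap in either measure. Both measures are scaled to library sums, and a typical gene fell on such scales too. With library totals the median log2 change was -0.20 over every tested gene, against -0.41 over members. On the TPM scale with a pseudocount of 1 these medians were -0.26 and -0.42. No share of other genes with separated groups is given here. Of 265 members tested, 126 were lower (47.5%), 52 higher (19.6%) and 87 not called at an adjusted p under 0.05. Among all 11826 genes tested, 38.3% were lower and 37.8% higher, and among the 10792 of these that met the same 1 TPM threshold 40.0% and 38.6%. The members' median log2 fold change was -0.23, against -0.017 for all genes. Since the DMSO level chose the members, these counts describe them and test nothing. With members chosen instead on 1 TPM in the YJ1206 cells, 44.9% were lower and 21.1% higher. Under scaling by library totals, which lowered the median of all genes to -0.20, the called members split 18.4% higher to the rest lower, against 29.2% higher with TMM scaling. On the TPM scale with limma and a pseudocount of 1 the share was 12.8%. Of all called genes, 49.7% were higher with TMM scaling, 36.1% with library totals and 29.3% on that TPM scale. Relative to the median of all genes, the members' median was -0.21 with TMM scaling, -0.18 with DESeq2 and -0.16 on that TPM scale.

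**Figure D1:**
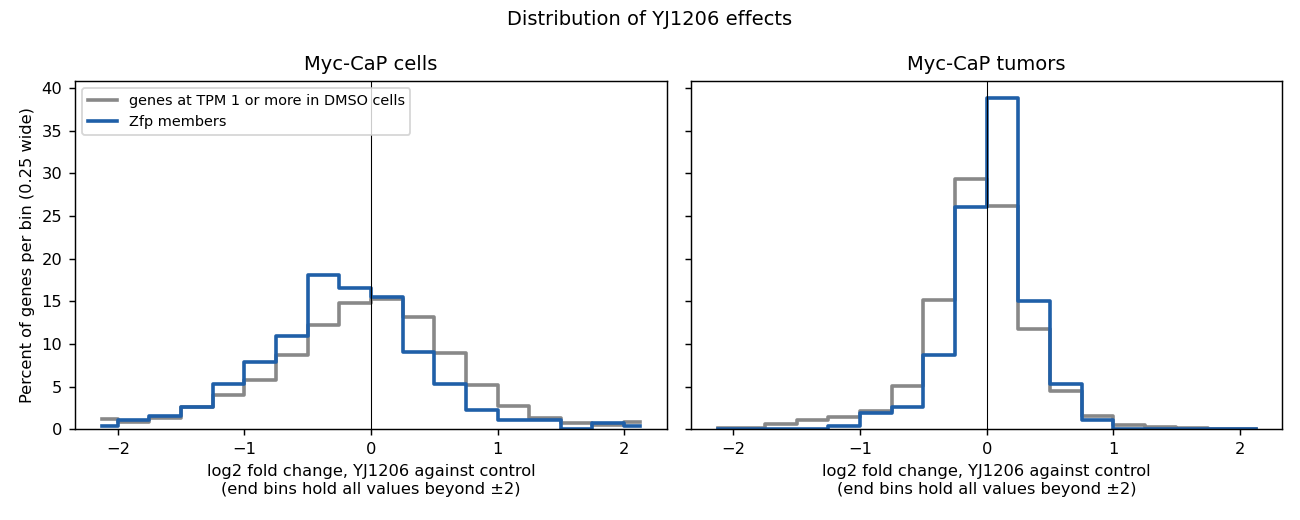
Distribution of log2 fold changes with YJ1206 (x axis, log2 scale) as the percent of genes per bin (y axis), for the Zfp members and for all genes at 1 TPM or more in DMSO cells. In cells the members' median was -0.23 and their curve sits to the left of the gray one, and in tumors their median was 0.057.

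Zfp296, a factor studied in pluripotent cells, had the largest rise in cells. The leading genes were taken among called members whose groups do not overlap, so their separation was set by that choice. Its libraries read 3.33, 3.62 and 4.69 CPM with DMSO and 13.7, 17.1 and 18.6 CPM with YJ1206. The groups did not overlap (log2 fold change 2.08 ± 0.14 (SE), adjusted p = 2.14e-13). Zfp428 read 13.5, 13.1 and 13 CPM with DMSO and 45.4, 44.9 and 47.6 CPM with YJ1206, and the treated libraries were again all above the controls (log2 fold change 1.80 ± 0.070 (SE), adjusted p = 1.35e-18). Zfp622 encodes a factor that matures the large ribosomal subunit. It measured 44.5, 49 and 46.8 CPM with DMSO and 129, 128 and 132 CPM with YJ1206, a narrow spread in both groups (log2 fold change 1.47 ± 0.043 (SE), adjusted p = 2.62e-21).

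Among the other 5 leading rises, Zfp984 rose by a log2 fold change of 1.76 (adjusted p = 5.01e-10), but 68.8% of its 31-base words occur in other genes as well, so reads may be split between copies. Zfp956, Zfp212, Zfp772 and Zfp189 had log2 fold changes of 1.37, 1.31, 1.22 and 1.10, with adjusted p-values of 2.6e-11, 8.15e-17, 1.19e-06 and 2.38e-05. Among the 8 leading rises, 2 had the KRAB pattern, Zfp984 and Zfp772. In all, 9 of 265 members (3.40%) were at least 2-fold higher and 28 (10.6%) at least 2-fold lower, against 7.89% and 10.5% of all genes tested.

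Zfp469, whose human counterpart is mutated in brittle cornea syndrome, had the largest fall. It measured 55, 61.1 and 64.7 CPM with DMSO and 11, 8.60 and 7.84 CPM with YJ1206, so that the highest treated library held far less than the lowest control (log2 fold change -2.71 ± 0.090 (SE), adjusted p = 3.96e-20). Zfp57, the KRAB protein that keeps DNA methylation at imprinted loci, measured 21.8, 19 and 18.9 CPM with DMSO and 5.87, 5.58 and 5.54 CPM with YJ1206 (log2 fold change -1.81 ± 0.11 (SE), adjusted p = 2.1e-14). Zfp626, another KRAB gene, measured 17.3, 15.3 and 16.3 CPM with DMSO and 4.29, 5.13 and 3.85 CPM with YJ1206 (log2 fold change -1.88 ± 0.12 (SE), adjusted p = 1.22e-13). In each of these genes all treated libraries lay below all controls.

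Zfp523, the mouse counterpart of human ZNF76 and a relative of Zfp143, fell too (log2 fold change -1.65, adjusted p = 6.68e-11). Zfp239 and Zfp692 had log2 fold changes of -1.80 and -1.73, with adjusted p-values of 1.72e-13 and 3.58e-15. Zfp90 (log2 fold change -1.70, adjusted p = 2.93e-11) and Zfp972 (-1.73, adjusted p = 0.00315) also fell, and they share 77.9% and 71.8% of their 31-base words with other genes. Few reads lie behind the fall of Zfp972, whose counts were 14, 30 and 15 in DMSO cells against 6, 3 and 3 in treated cells.

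**Figure D2:**
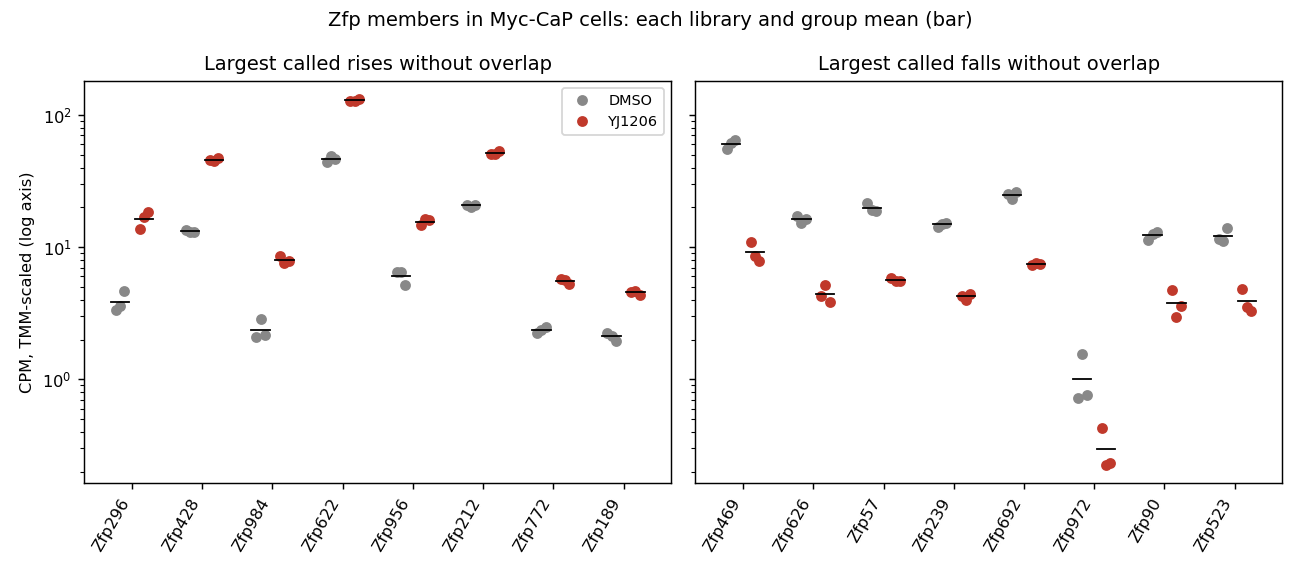
CPM of the 8 members with the largest called rise (left) and the 8 with the largest called fall (right) in cells among those whose groups do not overlap, on a log axis, with a point per library and a bar at the group mean. Zfp296 shows the largest rise and Zfp469 the largest fall.

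Among the 8 most abundant members, log2 fold changes ran from -0.61 to 0.39. Zfp706, at a mean of 276 TPM the highest in DMSO cells, rose, at 254, 235 and 250 CPM with DMSO and 320, 334 and 312 CPM with YJ1206 (log2 fold change 0.39, adjusted p = 3.59e-11). On the TPM scale with limma its value was 0.042 and the call was lost. Zfp207, a spindle assembly protein that binds BUB3, followed at 211 TPM and measured 255, 250 and 253 CPM with DMSO and 257, 253 and 255 CPM with YJ1206. Its difference did not pass the test (log2 fold change 0.014, adjusted p = 0.680), and its sign turned under scaling by library totals, where it was -0.17. Zfp106, an RNA-binding protein, followed at 128 TPM with a log2 fold change of -0.16 (adjusted p = 1.53e-06). Of the other 5 among the top 8, Zfp664 rose (0.20, turning to -0.10 on the TPM scale with a pseudocount of 1). The remaining 4 fell, with log2 fold changes of -0.27 for Zfp740, -0.32 for the ubiquitin ligase gene Zfp91, -0.61 for the BTB zinc finger gene Zfp131 and -0.15 for Zfp326, a subunit of a complex joining elongation to splicing.

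Grouped by what their proteins do, the members gave mixed counts, to be read against 37.8% of all genes higher and 38.3% lower. Among 13 members with roles in RNA or ubiquitin, 4 rose and 7 fell in cells. Zfp598, the ubiquitin ligase that marks collided ribosomes, rose (log2 fold change 0.55 ± 0.042 (SE), adjusted p = 3.87e-12), as did Zfp622. Zfp638, which silences unintegrated retroviral DNA, fell (log2 fold change -0.87 ± 0.043 (SE), adjusted p = 2.11e-16). Among 21 promoter activators and regulators, 6 rose and 9 fell. Zfp143, which binds promoters and chromatin loop anchors, fell (-0.25, adjusted p = 0.00213). Zfp687 and Zfp592, which share a protein complex, moved in opposite directions, with log2 fold changes of -1.28 (adjusted p = 1.49e-14) and 0.77 (adjusted p = 1.81e-11).

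Of 5 members that act on imprinted genes or retroelements through a KRAB box, 3 fell and 0 rose in cells. Besides Zfp57 these were Zfp445, a partner of Zfp57 at imprints (log2 fold change -0.48 ± 0.051 (SE), adjusted p = 1.8e-09), and Zfp932, which binds retroelements (log2 fold change -0.39 ± 0.096 (SE), adjusted p = 0.000802). Zfp932 shares 48.3% of its 31-base words with other genes, so its reads may be split between copies. Zfp568, a repressor of a placental Igf2 transcript, and Zfp809, which recognizes a retroviral primer binding site, had log2 fold changes of 0.11 and -0.052 that did not pass the test. Among the 108 tested members with the KRAB pattern 49 were lower and 10 higher (45.4% and 9.26%). Among the 156 without it 76 were lower and 42 higher (48.7% and 26.9%). With a looser pattern over all isoforms, chosen after these values were seen, the counts were 53 lower and 11 higher of 117. The median log2 fold changes were -0.26 with and -0.18 without the pattern. Of all genes tested in cells 38.3% were lower and 37.8% higher.

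The partners of KRAB proteins were not uniform. Of 41 tested genes for KAP1 and its corepressor chain, 25 rose and 10 fell in cells (61% and 24.4%). Of all genes tested 37.8% rose and 38.3% fell. Trim28, which encodes KAP1, measured 452, 445 and 451 CPM with DMSO and 685, 703 and 709 CPM with YJ1206 (log2 fold change 0.64 ± 0.025 (SE), adjusted p = 1.26e-18). Setdb1, the histone methyltransferase gene, went the other way with 107, 103 and 105 CPM with DMSO and 48.2, 42.6 and 45.5 CPM with YJ1206 (log2 fold change -1.21 ± 0.047 (SE), adjusted p = 1.44e-18). Tasor, a core subunit of the HUSH silencing complex, measured 76.8, 74.4 and 78 CPM with DMSO and 22.5, 19 and 18.1 CPM with YJ1206 (log2 fold change -1.94 ± 0.064 (SE), adjusted p = 4.42e-20). For each of the last 2 genes, every treated library lay below every control.

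By position, against 38.3% lower and 37.8% higher among all genes tested, 10 of 12 tested members on chromosome 11 fell and 0 rose in cells, and on chromosome 9 12 of 15 fell and 1 rose. On chromosome 6, 6 rose and 5 fell of 15, and on chromosome 7, with the most members, 11 rose and 27 fell of 64. The counts of rises and falls were 5 and 6 of 21 on chromosome 13, 3 and 4 of 9 on chromosome 4, 7 and 13 of 35 on chromosome 17, 1 and 11 of 19 on chromosome 8, 1 and 7 of 12 on chromosome 2, and 2 and 7 of 15 on chromosome 5. Along gene length there was little gradient: the Spearman correlation of span with the log2 fold change was 0.074 across 264 members, which share libraries and are not independent replicates. The 89 shortest genes held 44 falls and 20 rises, and the 88 longest tested genes 44 and 23. Members with a neighboring member within 50 kb fell in 42 and rose in 19 of 113 cases, the others in 84 and 33 of 152.

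RefSeq promoter windows of 300 bases, from 250 before to 50 after a start, were matched for 221 members (274 windows). The windows of the genes with the largest rise in cells and in tumors are shown on GRCm38.p6, with capitals marking matches on either strand to CACGTG (the E-box that MYC binds), and to the CCAAT box, the GC box GGGCGG and the TATA box TATAAA.
Zfp296 promoter, chr7:19577037-19577336, strand +: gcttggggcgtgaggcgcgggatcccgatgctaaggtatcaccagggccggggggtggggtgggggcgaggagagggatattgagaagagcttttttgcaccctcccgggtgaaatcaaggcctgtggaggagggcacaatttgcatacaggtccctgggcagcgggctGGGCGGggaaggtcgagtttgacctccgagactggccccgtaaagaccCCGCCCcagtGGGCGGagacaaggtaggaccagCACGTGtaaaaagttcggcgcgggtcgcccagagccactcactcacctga
Zfp949 promoter, chr9:88547770-88548069, strand +: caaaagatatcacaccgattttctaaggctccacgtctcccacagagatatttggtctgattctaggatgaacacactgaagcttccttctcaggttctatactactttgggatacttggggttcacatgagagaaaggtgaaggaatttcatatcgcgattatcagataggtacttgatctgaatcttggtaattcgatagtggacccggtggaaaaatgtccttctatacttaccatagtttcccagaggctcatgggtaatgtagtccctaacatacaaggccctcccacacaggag
The window of Zfp296 held 3 GGGCGG matches and 1 CACGTG, and that of Zfp949 held none of the 4 motifs. GGGCGG was in 68.8% of 48 windows of members higher in cells, 43.9% of 132 windows of members lower in cells, 45.6% of all member windows and 35.7% of all 32851 windows. CACGTG was in 10.4%, 3.79%, 6.57% and 7.15% of the same sets. The set of all windows was not limited to expressed genes, and the share among all genes higher in cells was not computed. Windows of members with the KRAB pattern held GGGCGG in 34.5% and those without in 53.8%. Of the members higher in cells 10 had the pattern and 42 did not. The CCAAT box was in 59.5% of windows with the KRAB pattern and 36.7% of those without, against 37.4% of all windows. A match is a string of letters and does not show binding.

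In tumors fewer members were called than in cells. The 1 TPM threshold did not use the tumor libraries, but members and gene lists were chosen with earlier results of these data known. Of 265 tested, 25 were higher (9.43%) and 24 lower (9.06%) with YJ1206, while among all 15558 genes tested 11.9% were higher and 14.9% lower. Among the 10628 of these at 1 TPM or more in DMSO cells, 12.9% were higher and 20.2% lower. The members' median log2 fold change was 0.057, against 0.0091 for all genes and -0.041 for those at 1 TPM or more. Their share of counts was 0.873% ± 0.025 (SD, n = 3) in vehicle and 0.857% ± 0.014 (SD, n = 3) in YJ1206 tumors, and these ranges overlap. The spread between tumors was wider than between cultures, with a common biological coefficient of variation of 0.139 against 0.0322. On the TPM scale with limma and a pseudocount of 1, 20.6% of the called members were higher, against 51.0% here. Of all called genes 33.8% were higher on that scale, against 44.4% here. The counts depended on which libraries were included. With libraries 1 and 2 of each group alone, 0 members passed by edgeR's quasi-likelihood test, and 12 higher and 15 lower had an unadjusted p under 0.05. In that fit 1 of all 15684 genes passed, and 3068 had an unadjusted p under 0.05. All 25 and all 24 kept their sign there, in libraries that are part of the full set. Without vehicle replicate 1, 2 or 3 the counts higher and lower were 14 and 16, 39 and 33, and 7 and 8. Without YJ1206 replicate 1, 2 or 3 they were 13 and 18, 16 and 12, and 3 and 5. The shares of all genes called higher and lower moved too. They were 10.2% and 12.9%, 16.7% and 19.5%, and 4.79% and 7.42% without vehicle replicate 1, 2 or 3. For YJ1206 replicate 1, 2 or 3 they were 7.93% and 10.5%, 7.3% and 10%, and 4.80% and 6.96%.

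Zfp949, a KRAB gene, had the largest called rise in tumors. It measured 51.6, 67.5 and 57.5 CPM with vehicle and 119, 91.1 and 98.9 CPM with YJ1206 (log2 fold change 0.80 ± 0.13 (SE), adjusted p = 0.00519). Zfp697 measured 20.6, 16.1 and 18.5 CPM with vehicle and 31.1, 28.8 and 27.8 CPM with YJ1206 (log2 fold change 0.67 ± 0.11 (SE), adjusted p = 0.00579). Zfp827, whose human counterpart brings the NuRD complex to telomeres, measured 17, 19.2 and 20.7 CPM with vehicle and 32.1, 24.8 and 28.7 CPM with YJ1206 (log2 fold change 0.59 ± 0.12 (SE), adjusted p = 0.0127). In these genes the lowest treated tumor was above the highest vehicle tumor.

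Zfp322a, a gene that supports pluripotency, measured 31.5, 33 and 30.8 CPM with vehicle and 45.1, 49.1 and 48 CPM with YJ1206 (log2 fold change 0.58 ± 0.070 (SE), adjusted p = 0.00222). The other 4 leading rises were all KRAB genes: Zfp938, Zfp560, Zfp316 and Zfp9, with log2 fold changes of 0.74, 0.60, 0.59 and 0.55 and adjusted p-values of 0.0111, 0.0169, 0.0105 and 0.0309. The KRAB pattern was in 5 of the 8 leading rises and 4 of the 8 leading falls.

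Zfp36, which encodes tristetraprolin, a protein that speeds the decay of AU-rich mRNAs, had the largest called fall in tumors. It measured 63.4, 139 and 92.9 CPM with vehicle and 45, 39.1 and 42.6 CPM with YJ1206, and the vehicle tumors themselves differed widely (log2 fold change -1.23 ± 0.26 (SE), adjusted p = 0.0131). Zfp948 measured 31.8, 21.6 and 26.6 CPM with vehicle and 10.1, 14.9 and 15.1 CPM with YJ1206 (log2 fold change -0.99 ± 0.20 (SE), adjusted p = 0.0107). Its neighbor Zfp52, with a near-identical KRAB core, measured 43.1, 35.4 and 38.1 CPM with vehicle and 26.4, 23.4 and 24.4 CPM with YJ1206 (log2 fold change -0.65 ± 0.098 (SE), adjusted p = 0.00410). These chromosome 17 neighbors share few of their 31-base words with other genes (4.38% and 7.64%).

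Zfp367 fell with 36.1, 32 and 34.1 CPM with vehicle and 14.8, 21.9 and 19.8 CPM with YJ1206 (log2 fold change -0.85 ± 0.15 (SE), adjusted p = 0.00627). Zfp365, linked to centrosomes and genome stability, measured 25, 43 and 32.1 CPM with vehicle and 19, 18.7 and 20.0 CPM with YJ1206 (log2 fold change -0.80 ± 0.19 (SE), adjusted p = 0.0188). Zfp469, Zfp57 and Zfp7 fell, with log2 fold changes of -0.79, -0.76 and -0.63, with adjusted p-values of 0.00491, 0.0394 and 0.0377.

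**Figure D3:**
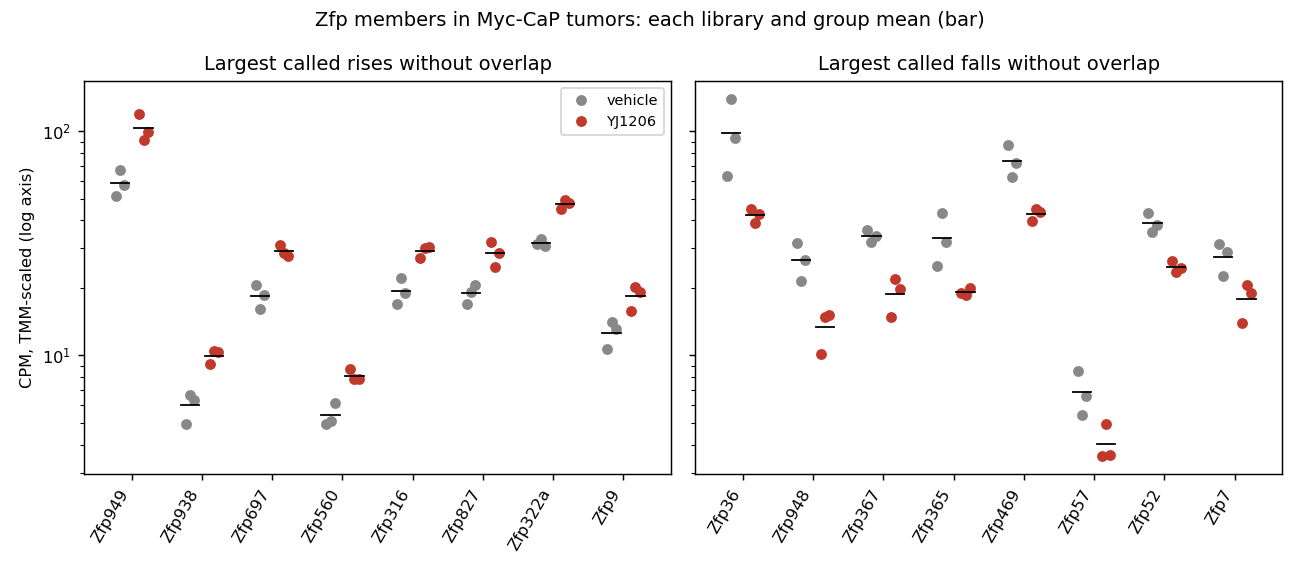
CPM of the 8 members with the largest called rise (left) and the 8 with the largest called fall (right) in tumors among those whose groups do not overlap, on a log axis, with a point per tumor library and a bar at the group mean. The vehicle points of Zfp36 spread from 63.4 to 139 CPM.

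Members with the KRAB pattern were higher in 16 and lower in 7 of 108 tests in tumors (14.8% and 6.48%), and those without it higher in 9 and lower in 16 of 156 (5.77% and 10.3%). Their medians were 0.16 and 0.022. Of all genes tested in tumors 11.9% were higher and 14.9% lower. Of those at 1 TPM or more in DMSO cells the shares were 12.9% and 20.2%. Without library 3 of either group the medians with and without the pattern were 0.16 and -0.0021. There were 0 calls in each, in a fit that called 1 of all 15684 genes. Leaving out vehicle replicate 3 alone gave 3 higher and 3 lower with the pattern, and 4 and 4 without it. Without YJ1206 replicate 3 the counts were 1 and 2, and 2 and 2. Of all genes tested, 4.79% were higher and 7.42% lower without vehicle replicate 3, and 4.80% and 6.96% without YJ1206 replicate 3. By level, the 88 tested members lowest in DMSO cells (under 4.80 TPM) had 12 rises and 1 fall in tumors, and the 89 highest (over 12.3 TPM) had 5 and 18. Without YJ1206 replicate 3 these became 0 and 0, and 1 and 3. Of the imprint and retroelement genes, Zfp809 (0.41, adjusted p = 0.0167) and Zfp932 (0.34, adjusted p = 0.0323) rose and Zfp57 fell. Other genes hold 48.3% of the 31-base words of Zfp932. Among promoter regulators 1 rose and 4 fell, and among RNA and ubiquitin genes 0 rose and 2 fell, Zfp36 and Zfp593.

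**Figure D4:**
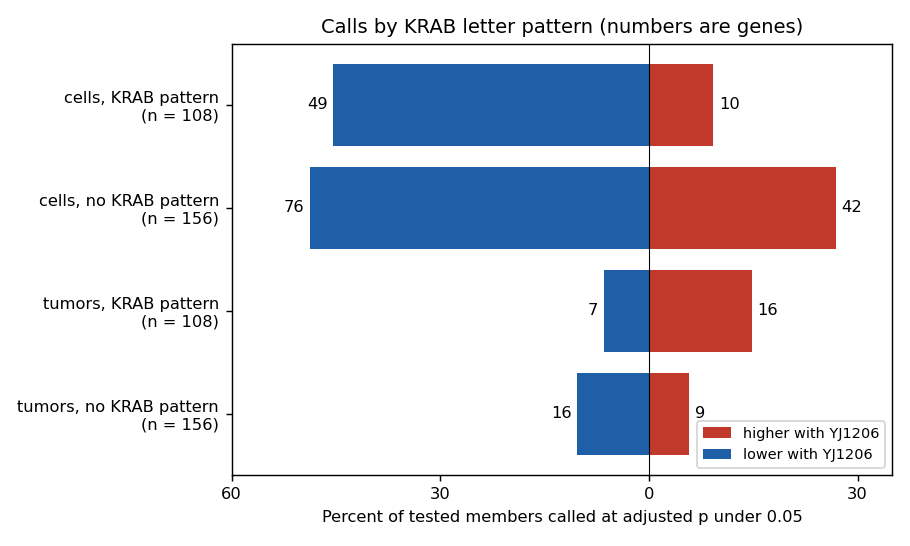
Percent of tested members called higher (right of 0) or lower (left of 0) with YJ1206, for members with and without the KRAB letter pattern in cells and tumors. Numbers at the bar ends are genes. With the pattern, 49 were lower and 10 higher in cells, and 7 lower and 16 higher in tumors.

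Of 41 tested genes for KAP1 and its corepressors, 16 were lower (39%), 2 higher (4.88%) and 23 not called in tumors. Of all genes tested 14.9% were lower and 11.9% higher. Of those at 1 TPM or more in DMSO cells the shares were 20.2% and 12.9%. Trim28 measured 245, 231 and 238 CPM with vehicle and 199, 202 and 193 CPM with YJ1206 (log2 fold change -0.27 ± 0.051 (SE), adjusted p = 0.00925). Setdb1 had a log2 fold change of -0.15 that did not pass the test (adjusted p = 0.103). Tasor fell again, with a log2 fold change of -0.60 (adjusted p = 0.00580). Without library 3 of both tumor groups no corepressor passed the threshold, and only 1 of all 15684 genes did. In that fit 10 lower and 0 higher corepressors had an unadjusted p under 0.05. Without vehicle replicate 3 the count was 9 lower and 0 higher of 42 tested, and without YJ1206 replicate 3 it was 9 and 0 of 41. Of all genes tested, 7.42% were lower and 4.79% higher without vehicle replicate 3, and 6.96% and 4.80% without YJ1206 replicate 3.

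The effects in tumors and cells were compared gene by gene, although the settings differ in dose form, duration and cell makeup. The effect differed for 131 of 266 members, 92 with the tumor effect above the cell effect and 39 below (34.6% and 14.7%). Of all 15423 genes tested 46.8% differed, 20.8% with the tumor effect above and 26.0% below. The difference holds the DMSO libraries that chose the members, so its counts describe them and test nothing. Both contrasts called 42 of 264 members (15.9%), against 26.4% of 11307 genes tested in both. Of these, 18 were lower in both (6.82% of members, against 9.0% of all genes) and 6 higher in both (2.27% against 6.52%). Another 12 were lower in cells and higher in tumors (4.55% against 3.63%), and 6 were higher in cells and lower in tumors (2.27% against 7.23%). The KRAB pattern was in 9 of the 12 and 0 of the 6 with opposite calls, and in 7 of the 18 that fell in both.

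Zfp949 measured 9.64, 11.1 and 11.2 CPM with DMSO and 7.37, 7.09 and 6.54 CPM with YJ1206 in culture, a fall (log2 fold change -0.60 ± 0.12 (SE), adjusted p = 6.22e-05) set against its rise in tumors. The difference of its log2 effects, tumors minus cells, was 1.37 ± 0.18 (SE), adjusted p = 2.75e-05. For Zfp827 the cell libraries read 9.95, 10.2 and 9.17 CPM with DMSO and 4.87, 3.77 and 5.31 CPM with YJ1206, and the difference was 1.63 ± 0.19 (SE), adjusted p = 1.18e-05. Zfp697, Zfp941 and Zfp365 also went opposite ways, with differences of 1.19, 1.28 and -1.37. In cells Zfp365 rose to a log2 fold change of 0.54 while Zfp697 and Zfp941 fell by 0.55 and 0.79, and the Zfp941 libraries overlapped between groups. The tumor rise of Zfp941 (adjusted p = 0.0470) lost its call in 12 of 14 alternatives. The rise of Zfp365 in cells lost it in 3 of 13, all on the TPM scale, with a value down to 0.21, and its fall in tumors in 5 of 14, each with 1 library or library 3 of both groups left out.

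Zfp469, Zfp57, Zfp948, Zfp7 and Zfp593 had the largest falls shared by both settings. Zfp469 fell more in cells than in tumors (difference 1.90 ± 0.19 (SE), adjusted p = 3.51e-06), and so did Zfp57 (1.02 ± 0.25 (SE), adjusted p = 0.00451). For Zfp948, Zfp7 and Zfp593 the differences were -0.28, 0.31 and 0.16 and did not pass the test (adjusted p = 0.390, 0.281 and 0.567). Zfp593 shares 71.5% of its 31-base words with other genes. Of the 8 genes that rose most in cells, 1 rose in tumors (Zfp956) and 7 were not called. Of the 8 that fell most in cells, 2 fell in tumors (Zfp469 and Zfp57) and 6 were not called.

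**Figure D5:**
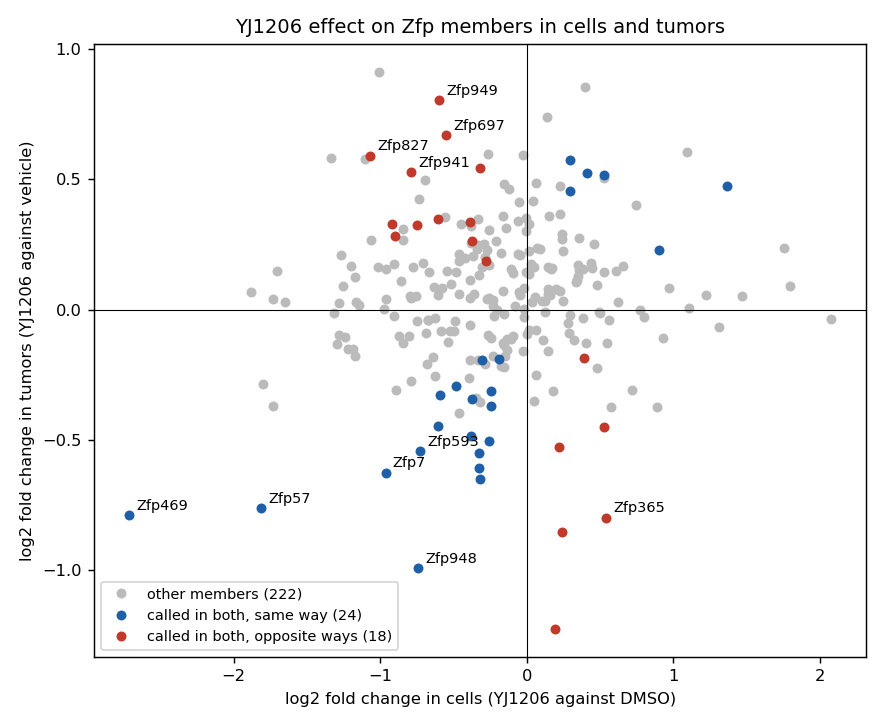
Log2 fold change of each member in cells (x axis) against tumors (y axis), for 264 members tested in both. Blue points (24) were called in both and moved the same way, red points (18) moved opposite ways, and the 10 leading genes of these sets are labeled.

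Zfp935 and Zfp990 were each left out of 1 contrast for low counts. In cells the counts of Zfp990 were 4, 5 and 3 in controls and 5, 0 and 1 after treatment. Zfp935 had 0 counts in 5 tumors and 7 in the other, and 100% of its 31-base words occur in other genes.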

How the data were processed

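RNA from 6 Myc-CaP cultures and 6 tumors was depleted of ribosomal RNA and sequenced as read pairs. Per the labels the authors used kallisto (version not given in the sources used here) with GRCm38/mm10, and deposited estimated counts per gene and TPM values; these are not scaled between libraries, and TPM is scaled to transcript length and library sum. Reads shared by near-identical genes are divided by that estimation.

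Members and gene lists were chosen with earlier results of these data known. Counts were rounded and tested with edgeR 4.0.16 (R 4.3.3; filterByExpr, TMM, quasi-likelihood test, Benjamini-Hochberg over all genes tested, threshold 0.05). CPM are TMM-scaled and SE is the log2 fold change divided by the root of F. The difference between tumors and cells was the interaction term over 12 libraries. Its SE and p-values rest on a spread per gene shared by all 12 libraries. The common biological coefficient of variation was 0.0322 in cells and 0.139 in tumors. The procedure was tested on simulated data, but the effect of this unequal spread on the interaction test was not tested. Genes were named by rule: the 8 largest rises and falls per contrast without overlap, the 8 highest by TPM, 3 on each side of the threshold, role lists, and the 5 strongest called in both, either way. The mRNA of Cdk12, Cdk13 and Ccnk was read as well, which does not check protein degradation.

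Fingers (CX2-4CX12HX3-5H) and KRAB boxes were found as letter patterns in the longest translation per gene in GENCODE vM21. Tables were joined on unversioned Ensembl identifiers. The study's methods describe its replicates as biological and independent. Alternatives included DESeq2 1.42.0, limma 3.58.1 on log2(TPM + 1), other scalings, filters and member thresholds, and leaving out each library. Labels give polyA RNA for the cells but a ribosomal depletion protocol. Same-numbered samples were not treated as paired in the main tests. The level of 1 marker is not reported here.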

Additional observations from a re-analysis of the deposited data

Results flagged for a closer look

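The effect of YJ1206 differed between tumors and cells for 131 members by the interaction test of edgeR, or 49.2% of the 266, against 46.8% of all genes tested, and 29 of them were named above. Values here are the log2 effect in tumors minus that in cells. This difference holds the DMSO libraries that chose the members, so the count describes them. It was above 0 in 16 of the 29: Zfp626 1.92, Zfp469 1.90, Zfp90 1.82, Zfp972 1.75, Zfp523 1.65, Zfp827 1.63, Zfp239 1.49, Zfp949 1.37, Zfp692 1.33, Zfp941 1.28, Zfp697 1.19, Zfp57 1.02, Zfp9 0.83, Zfp560 0.83, Zfp316 0.59 and Zfp740 0.28. It was below 0 in 13: Zfp296 -2.15, Zfp428 -1.74, Zfp984 -1.55, Zfp622 -1.45, Zfp36 -1.45, Zfp212 -1.41, Zfp365 -1.37, Zfp772 -1.20, Zfp189 -1.13, Zfp367 -1.12, Zfp956 -0.92, Zfp706 -0.45 and Zfp52 -0.37. Adjusted p-values ran from 1.34e-07 for Zfp428 to 0.0299 for Zfp52. They rest on a spread per gene shared by cells and tumors, although tumors varied more. The settings differ in dose form, duration and the cells present, and these cannot be told apart. Groups of 3 are too small for a search for single outlying libraries.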

How the results depend on the processing

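The counts of members lower in cells and of members with different effects stayed within 1.5 times of the main count under every alternative run. The count higher in cells, 52, became 22 with limma on log2(TPM + 1), 22 on log2(TPM + 0.1) and 19 without a filter. The count higher in tumors, 25, became 7, 7 and 5 there, and 15 with the replicate number as a block. With tumor libraries 1 and 2 only, the counts higher and lower were 0 and 0, in a fit that called 1 of all 15684 genes. Among the called members 12.8% were higher in cells with limma on log2(TPM + 1), against 29.2%, and 20.6% in tumors, against 51.0%. Among all called genes the shares were 29.3% against 49.7% in cells and 33.8% against 44.4% in tumors. Leaving out 1 library at a time gave 48 to 52 higher and 116 to 122 lower in cells, 3 to 39 higher and 5 to 33 lower in tumors, and 120 to 132 with different effects. Of all genes tested in tumors, 4.79% to 16.7% were then higher and 6.96% to 19.5% lower. Correlations between same-numbered samples were -0.029 to 0.010. With 3 libraries per group these values cannot exclude a shared day or preparation, and the labels name no pairing. The block gave 176 called members in cells and 32 in tumors, against 178 and 49. The interaction test with tumor libraries 1 and 2 only, chosen after seeing the data, gave 104.

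Of the named genes' values under alternatives, 1550 kept direction and side of the threshold, 123 lost the call, 21 gained one and 66 changed sign. With library totals these were Zfp938 -0.051 and Zfp207 -0.17 in cells, and Zfp207 0.097, Zfp91 0.15, Zfp664 0.069 and Zfp326 0.12 for tumors minus cells. With no filter on low counts these were Zfp207 -0.0010 in cells. With limma on log2(TPM + 1) these were Zfp938 -0.16, Zfp322a -0.047, Zfp36 -0.13, Zfp367 -0.071, Zfp207 -0.28 and Zfp664 -0.10 in cells, and Zfp428 -0.0060, Zfp772 -0.021, Zfp189 -0.055 and Zfp972 -0.020 in tumors. With limma on log2(TPM + 0.1) these were Zfp938 -0.19, Zfp322a -0.050, Zfp36 -0.14, Zfp367 -0.073, Zfp207 -0.28 and Zfp664 -0.10 in cells, and Zfp428 -0.0067, Zfp772 -0.029, Zfp189 -0.071 and Zfp972 -0.021 in tumors. With limma on log2(TPM + 1) and no filter these were Zfp938 -0.16, Zfp322a -0.047, Zfp36 -0.13, Zfp367 -0.071, Zfp207 -0.28 and Zfp664 -0.10 in cells, and Zfp428 -0.0060, Zfp772 -0.021, Zfp189 -0.055 and Zfp972 -0.020 in tumors. With the replicate number as a block these were Zfp189 -0.00059 in tumors. With tumor libraries 1 and 2 only these were Zfp189 -0.00077, Zfp972 -0.15 and Zfp523 -0.0034 in tumors. With DESeq2 these were Zfp106 -0.033 for tumors minus cells. Leaving out 1 library, the values that changed sign ranged for Zfp316 from -0.14 to 0.091 and Zfp938 from -0.0030 to 0.31 in cells, and for Zfp296 from -0.15 to 0.16, Zfp212 from -0.22 to 0.091, Zfp772 from -0.11 to 0.22, Zfp523 from -0.063 to 0.13, Zfp706 from -0.10 to 0.027, Zfp622 from -0.033 to 0.12, Zfp189 from -0.086 to 0.11 and Zfp972 from -0.072 to 0.14 in tumors, and for Zfp106 from -0.018 to 0.024 and Zfp91 from -0.20 to 0.034 for tumors minus cells. The causes were not tested. At this depth Zfp990 in cells and Zfp935 in tumors had too few counts to be tested.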

Other observations

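Other zinc finger families, listed by their gene prefix, are given as counts. Of 37 tested Zbtb genes, which pair fingers with a BTB domain, 22 fell and 8 rose in cells (median log2 fold change -0.25), and 2 fell and 5 rose of 39 in tumors. Of 16 tested Zkscan and Zscan genes, whose SCAN domain pairs proteins, 10 fell and 2 rose in cells (median -0.41), and of 19 in tumors 1 fell and 3 rose. The Klf genes, a family of promoter-binding factors with 3 fingers, went the other way in cells, with 8 higher and 4 lower of 13 (median 0.27), and gave 1 higher and 2 lower of 14 in tumors. In cells 38.3% of all genes tested were lower and 37.8% higher, and in tumors 14.9% and 11.9%. The tumor counts of these families were not recomputed without single libraries, and no difference between the families was tested.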
